A study of Mus musculus with 4 samples.

Results

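The cells described here are the unexpanded T cells of 2 tumour T cell receptor (TCR) libraries, that is, cells with both receptor chains that were alone in their deposited clonotype. They were chosen from the deposited receptor contigs as barcodes with exactly 1 productive alpha (TRA) and 1 productive beta (TRB) chain whose clonotype identifier held no other barcode with both chains. By this rule 255 of the 800 barcodes in the contig lists were members: 146 of 408 in WT and 109 of 392 in p53 KO. The rule reads chain number and clonotype size, and the identifier itself was built from the receptor sequences. The comparisons below are therefore descriptions, with no test, and the values that chose the members support nothing.

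The study used MC38, a mouse colon carcinoma cell line grown as a tumour in C57BL/6J mice, and knocked out p53 in the tumour cells with CRISPR-Cas9. The WT group is an MC38 tumour labelled WT and the p53 KO group one of the edited cells, and both were treated with anti-PD-1, which releases T cells from inhibition through PD-1. The labels name no engineered allele in the host mice, whose T cells are described here. There was 1 TCR library per genotype, with no untreated tumour, and the 2 gene expression libraries of the 4 samples were not analysed here. The sources used here do not say whether the knockout line is 1 clone or how many mice were pooled, and genotype and library cannot be told apart.

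Each alpha beta T cell builds its receptor by joining gene segments. An alpha chain joins a V (TRAV) to a J (TRAJ) segment, and a beta chain joins a V (TRBV), a short D (TRBD) and a J (TRBJ) segment. Bases are trimmed and added at the joints, and the loop encoded there, CDR3, is the part of the receptor that mostly contacts the presented peptide. T cells that descend from 1 parent share its receptor, so a receptor seen in several cells marks a clone that has grown. A receptor seen in a single cell belongs to a clone that is small or was sampled once.

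The sequences below carry the clearest patterns found among the members. They are CDR3 coding sequences read from the deposited contigs, 5′ to 3′, from the codon of the conserved cysteine to that of the closing phenylalanine. Capitals mark bases that differ among members with the same CDR3 amino acids, and a line without capitals is a chain found with 1 coding sequence only. The first 4 lines are the TRAV11–TRAJ18 chain, the invariant alpha chain of natural killer T (NKT) cells, all from p53 KO. The next 4 encode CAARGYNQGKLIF, joined to TRAJ23 and found in both libraries. The remaining lines are a pair of p53 KO alpha chains that recurred with different beta chains, and a WT beta chain with 2 coding sequences.
TRAV11–TRAJ18, 1 member: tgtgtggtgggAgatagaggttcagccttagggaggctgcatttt
TRAV11–TRAJ18, 2 members: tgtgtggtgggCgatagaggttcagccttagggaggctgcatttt
TRAV11–TRAJ18, 1 member: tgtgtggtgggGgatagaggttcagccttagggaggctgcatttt
TRAV11–TRAJ18, 1 member: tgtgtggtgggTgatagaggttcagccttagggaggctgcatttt
TRAV14D-2–TRAJ23, 1 p53 KO member: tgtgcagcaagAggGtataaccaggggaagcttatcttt
TRAV7D-2–TRAJ23, 1 WT member: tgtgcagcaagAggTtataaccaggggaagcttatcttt
TRAV7D-2–TRAJ23, 2 p53 KO members: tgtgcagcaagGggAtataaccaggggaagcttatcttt
TRAV7D-2–TRAJ23, 1 WT member: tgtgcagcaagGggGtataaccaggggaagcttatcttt
TRAV3-3–TRAJ39, 4 p53 KO members: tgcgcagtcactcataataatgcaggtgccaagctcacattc
TRAV6-6–TRAJ18, 2 p53 KO members: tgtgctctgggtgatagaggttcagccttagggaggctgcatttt
TRBV12-2+TRBV13-2–TRBJ2-5, 1 WT member: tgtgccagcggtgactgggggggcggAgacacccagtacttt
TRBV12-2+TRBV13-2–TRBJ2-5, 1 WT member: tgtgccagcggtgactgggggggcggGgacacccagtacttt

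Unexpanded members made up 52.7% of the 277 paired WT cells (exact 95% interval 46.6–58.7) and 42.1% of the 259 paired p53 KO cells (36.0–48.4). All intervals here are exact binomial (Clopper-Pearson) intervals and cover counting error only, since 1 library per genotype gives no replicate error. A further 28 WT and 34 p53 KO cells were also alone in their clonotype but had an extra alpha or beta chain, and were not members. Expanded clonotypes held 103 WT cells in 37 clonotypes and 116 p53 KO cells in 25 clonotypes. Just outside the rule, 20 WT and 12 p53 KO clonotypes had 2 paired cells, and the largest had 6 cells in WT and 28 in p53 KO. Single-chain barcodes, which cannot be members, differed in kind: 82 WT barcodes had only an alpha chain and 49 only a beta chain, against 41 and 92 in p53 KO. The contig lists held 0 immunoglobulin, gamma or delta chains, and 0 barcodes occurred in both libraries.

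**Figure D1:**
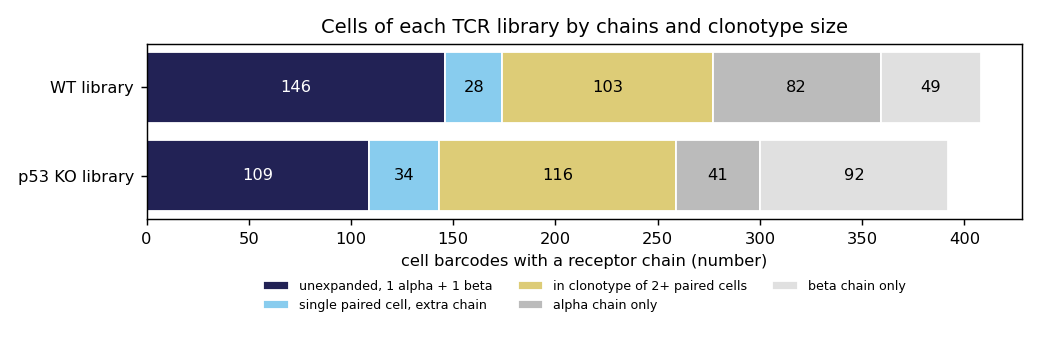
Cell barcodes (number, horizontal axis) of the WT and p53 KO library by the chains found and the size of the clonotype. The dark segments are the members, 146 in WT and 109 in p53 KO, and the 2 grey segments show the opposite balance of alpha-only and beta-only barcodes.

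Each member's chains rested on few molecules. The members' contigs held 1621 unique molecular identifiers (UMIs) in WT and 1090 in p53 KO. The alpha chain had a median of 4 UMIs in WT (range 1–37) and 3 in p53 KO (1–16), and the beta chain 4 (1–29) and 5 (1–31). At least 1 of the chains rested on a single UMI in 33 WT members (22.6%) and 22 p53 KO members (20.2%). For a gene carried by 0 members, the exact interval still reached a share of 2.49% in WT and 3.33% in p53 KO.

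The beta V genes of the unexpanded cells were spread widely, with 22 names used in each library. By single name, TRBV1 led in WT with 18 members (12.3%, interval 7.47–18.8), and 8 p53 KO members had it (7.34%, 3.22–14.0). The deposited lists also hold a combined name, TRBV12-2+TRBV13-2, which was carried by 16 WT members (11.0%) and led in p53 KO with 13 (11.9%). All 29 of these chains had the CDR1 loop NNHNN, as did all 7 chains named TRBV13-2, whereas all 13 named TRBV12-2 had SGHLS. With both NNHNN names pooled, this group came to 19 WT members (13.0%, 8.02–19.6) and 17 p53 KO members (15.6%, 9.36–23.8), more than TRBV1 in each library. TRBV13-1 followed with 14 members in WT (9.59%) and 6 in p53 KO (5.50%), and TRBV3 with 14 (9.59%) and 8 (7.34%). TRBV5, TRBV19, TRBV12-2 and TRBV29 had 11, 7, 6 and 2 WT members and 7 p53 KO members each. The 5 leading names covered 50.0% of WT and 39.4% of p53 KO members.

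The members of each library used 12 TRBJ genes. TRBJ2-7, the J gene nearest to TRBC2, was the most used in each, with 24 WT members (16.4%, 10.8–23.5) and 23 p53 KO members (21.1%, 13.9–30.0). TRBJ2-2 had 19 members in WT (13.0%, 8.02–19.6) and 4 in p53 KO (3.67%, 1.01–9.13), a ratio of p53 KO to WT share of 0.282. TRBJ2-5 had 23 (15.8%) and 11 (10.1%). TRBJ1-1 went the other way, with 9 WT members (6.16%) and 13 p53 KO members (11.9%). TRBJ2-4 was at 11.0% in both libraries, and TRBJ2-1 at 8.90% and 11.0%.

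A rule of size was applied to the 21 genes carried by 15 or more members over both libraries, calling a ratio of shares of at least 1.5 in either direction. It called 7 genes, 33.3% of those tested, of which 6 (28.6%) were lower and 1 (4.76%) higher in p53 KO. The lower genes were TRBV1 (ratio 0.595), TRBV13-1 (0.574), TRBJ1-4 (0.609), TRBJ2-2 (0.282), TRBJ2-5 (0.641) and TRAJ37 (0.446), and the higher one was TRBJ1-1 (1.93). The exact intervals of the WT and p53 KO shares overlapped for each of the 7. Of these, TRBJ2-2 and TRAJ37 also passed a ratio of 2. The balance of 6 lower to 1 higher depended on the minimum of 15 members. That minimum pools both libraries, and WT has more members, so a gene frequent in WT reaches it more easily. With 10 or more members per gene, 15 of 35 genes were called, 7 higher and 8 lower in p53 KO. The balance at 15 members is therefore not read as a lean towards lower shares in p53 KO. TRBJ2-2 lies at chr6:41542957-41543007 and TRAJ37 at chr14:54181518-54181577 (RefSeq, GRCm38.p6, the patch release of mm10).

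**Figure D2:**
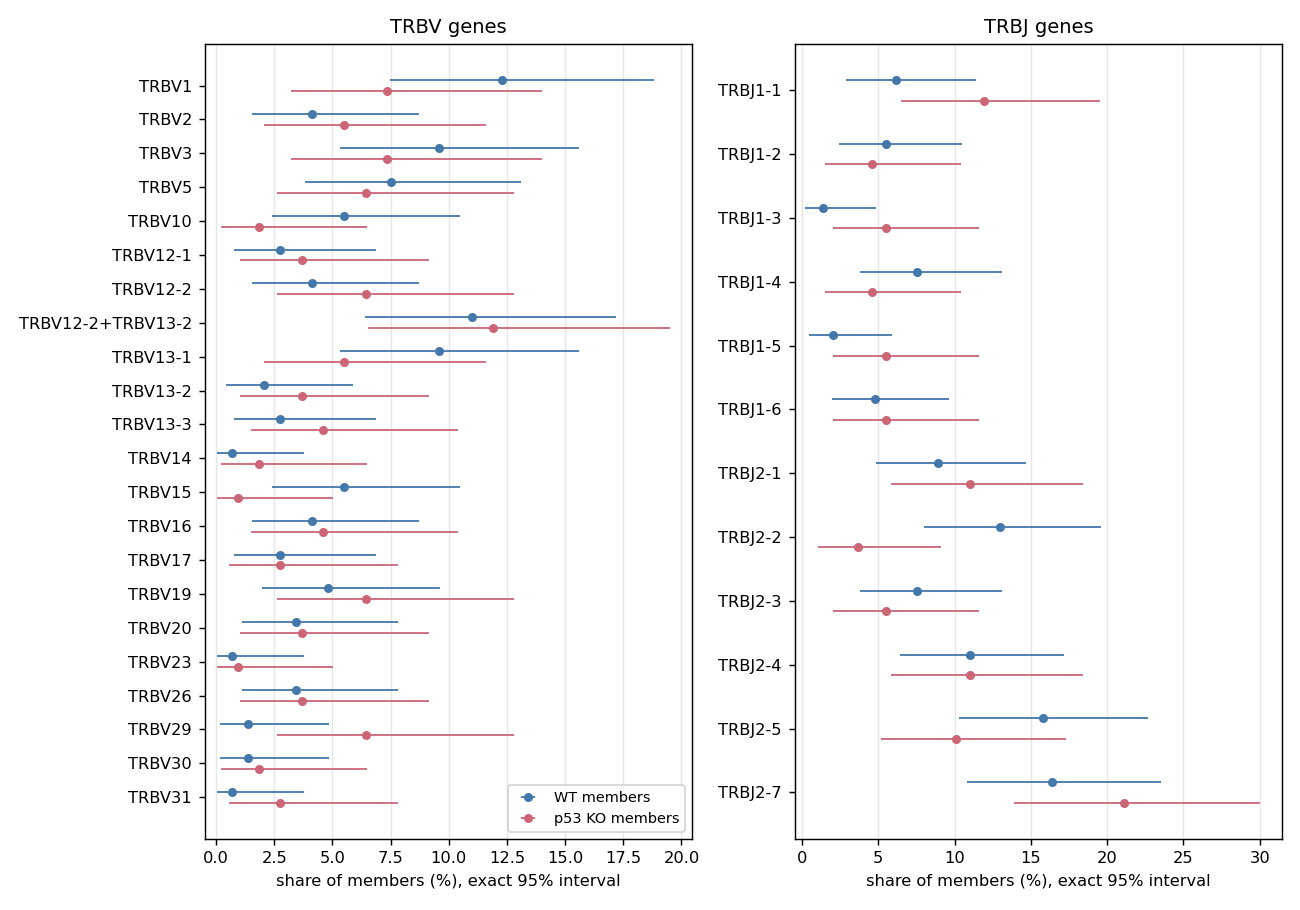
Share of members (%, horizontal axis) with each TRBV name (left) and TRBJ gene (right). Points are WT (blue) and p53 KO (red) members, and lines are exact 95% intervals, which overlap for every beta gene, TRBJ2-2 included (8.02–19.6 and 1.01–9.13).

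The order of segments in the beta locus could be read in the members. TRBD1 and the TRBJ1 cluster lie before TRBC1, and TRBD2 and the TRBJ2 cluster lie between TRBC1 and TRBC2, so TRBD2 cannot join TRBJ1 by deletion. The authors' annotation assigned a D segment to 36 WT members (24.7%) and 26 p53 KO members (23.9%). TRBD2 with a TRBJ1 gene occurred in 0 members of either library, while TRBD1 with a TRBJ2 gene occurred in 15 WT and 8 p53 KO members. TRBC1 was the constant gene of all 40 WT and all 41 p53 KO chains with TRBJ1. TRBC2 followed TRBJ2 in 105 of 106 WT chains, the other having no constant gene call, and in 68 of 68 p53 KO chains. The TRBJ1 cluster made up 27.4% of WT members (20.3–35.4) and 37.6% of p53 KO members (28.5–47.4). In the expanded clonotypes, each taken once through a cell with 1 chain of each kind, it made up 9 of 35 in WT (25.7%) and 4 of 24 in p53 KO (16.7%, 4.74–37.4).

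Alpha V genes were more evenly spread, with 58 names among WT and 51 among p53 KO members, so single genes had few carriers. The mouse alpha locus holds near-identical V copies, and names with D or N, which mark such copies, were given to 69 WT members (47.3%) and 56 p53 KO members (51.4%). A name within such a family is therefore uncertain. TRAV14D-1 led in WT, with 8 members against 2 in p53 KO. TRAV6N-7 had 6 and 7, and TRAV9-4 had 6 and 0. TRAV12D-2, TRAV13-1 and TRAV14-2 had 5 WT members each and 3, 1 and 2 in p53 KO. In p53 KO the leader was TRAV3-3, with 8 members against 2 in WT. Of the 8, 4 shared 1 alpha coding sequence and 2 shared another, so its lead rests on repeated chains. TRAV11 had 5 against 0, TRAV3D-3 had 4 against 5, TRAV9D-3 had 4 against 2, and TRAV6-6 and TRAV7D-2 had 4 in each. By family, TRAV6 was the most used in both libraries, with 24 WT members (16.4%) and 16 p53 KO members (14.7%). TRAV14 followed in WT with 20 (13.7%), against 13 in p53 KO (11.9%). TRAV3 had 8 WT members (5.48%, 2.40–10.5) and 14 p53 KO members (12.8%, 7.20–20.6), and the 14 include the repeated TRAV3-3 chains. TRAV12 had 15 (10.3%) and 6 (5.50%).

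Of the TRAJ genes, WT used 37 and p53 KO 34. TRAJ37 led in WT with 12 members (8.22%), against 4 in p53 KO (3.67%). TRAJ23 had 10 (6.85%) and 9 (8.26%), TRAJ31 had 9 (6.16%) and 8 (7.34%), and TRAJ21 had 9 (6.16%) and 7 (6.42%). TRAJ27 had 3 WT members (2.05%) and 9 p53 KO members (8.26%), and TRAJ22 had 8 (5.48%) and 5 (4.59%). TRAJ30 had 8 WT members (5.48%) and 1 p53 KO member (0.917%), and TRAJ33 had 3 (2.05%) and 7 (6.42%).

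TRAJ18, the J segment of the NKT chain at chr14:54200777-54200842, was the one gene of 153 names (0.654%) whose exact intervals lay apart. It was carried by 0 of 146 WT members (upper bound 2.49%) and 10 of 109 p53 KO members (9.17%, 4.49–16.2). The gene was not missing from the WT library: 3 of its 35 expanded clonotypes carried it (8.57%, 1.80–23.1), against 1 of 24 in p53 KO (4.17%). The alpha chains of the 10 members had 1 to 7 UMIs with a median of 2, and 3 of them rested on 1 UMI. Among members with 3 or more UMIs on each chain, TRAJ18 was in 0 of 80 in WT and 1 of 54 in p53 KO (1.85%, 0.0469–9.89), so the separation was not detectable at that depth.

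**Figure D3:**
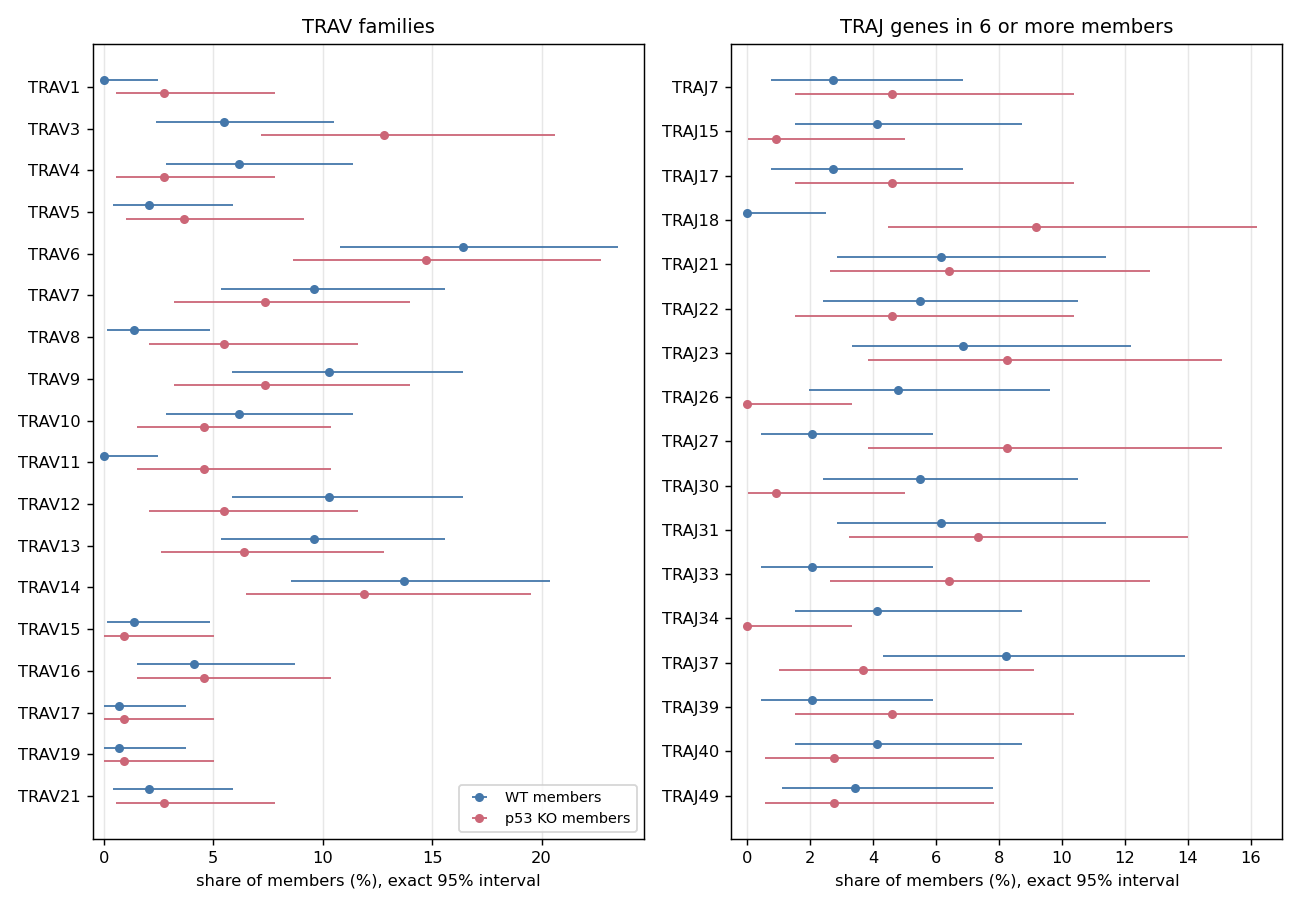
Share of members (%, horizontal axis) with each TRAV family (left) and each TRAJ gene carried by 6 or more members (right). Points are WT (blue) and p53 KO (red) members with exact 95% intervals. TRAJ18 is the one gene with separate intervals, at 0% and 9.17%.

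NKT cells are T cells with an invariant alpha chain that recognise lipids on CD1d, and in mice this chain pairs mostly with beta chains of the TRBV13, TRBV29 and TRBV1 groups. The TRAV11–TRAJ18 chain was found in 0 of 146 WT members and 5 of 109 p53 KO members (4.59%, 1.51–10.4), whose intervals overlapped. The 5 chains encoded the same 15 residues by 4 coding sequences that differ at 1 base, as printed above. Their beta chains were all different: TRBV12-2+TRBV13-2 in 2 members, TRBV13-1 in 2 and TRBV29 in 1. Each of the alpha chains had 1 to 3 UMIs. The coding sequence with A at the marked base was also in 1 p53 KO cell of an expanded clonotype. With 3 or more UMIs on each chain the p53 KO share was 1 of 54 (1.85%), and with neither CDR3 in another barcode it was 2 of 74 (2.70%), against 0 in WT under both. A TRAV1–TRAJ33 chain, as carried by the MAIT cells that sense microbial vitamin B metabolites, was found in 0 members of either library. The other 5 TRAJ18 members used TRAV6-6 (2 members), TRAV8D-2, TRAV14N-3 and TRAV1.

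V and J choice in the alpha chain followed position in the locus in both libraries. V segments far from the J cluster were joined to J segments far from the V genes, and near V segments to near J segments. Across members, the start of the V gene and the start of the J gene on chromosome 14 correlated with Pearson's r = −0.49 and Spearman's rho = −0.52 in WT (n = 146) and with −0.49 and −0.48 in p53 KO (n = 109). Members share V and J genes, so these points are not independent, and the values are a description. With names carrying D or N left out, rho was −0.42 in WT (n = 77) and −0.67 in p53 KO (n = 53). The names kept include plain names of the same families, whose position also depends on the copy named. TRAJ numbers fall along the locus from the V side to the constant gene. Of the third of members with the V nearest to the J cluster, 345 to 676 kb before TRAC, 45.5% in WT (32.0–59.4) and 46.7% in p53 KO (28.3–65.7) used a TRAJ numbered 40 or more. The third with the V farthest away held 44 WT and 41 p53 KO members, of which 6.82% in WT (1.43–18.7) and 7.32% in p53 KO (1.54–19.9) did so. The median TRAJ number fell from 38 to 22 between these groups in WT and from 39 to 22 in p53 KO.

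**Figure D4:**
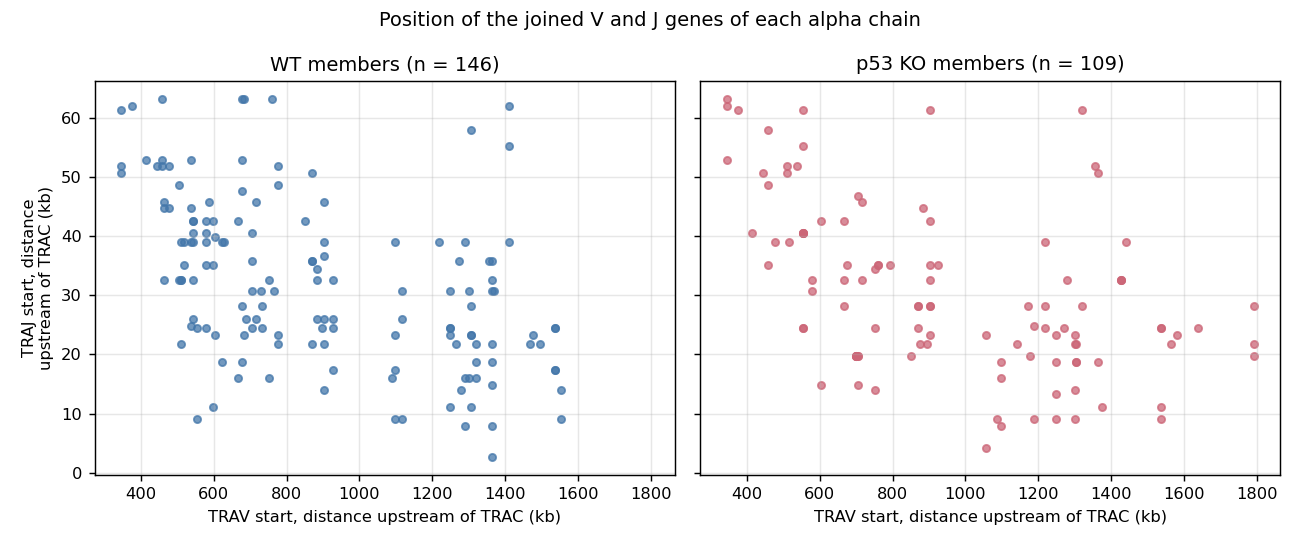
Distance upstream of TRAC (kb) of the V gene (horizontal axis) and the J gene (vertical axis) of each alpha chain, 1 point per member, in WT (left, n = 146) and p53 KO (right, n = 109). The points run from upper left to lower right in both libraries (rho −0.52 and −0.48).

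Most combinations of genes were seen once. The 146 WT members held 134 different TRAV–TRBV pairs, where the product of the gene shares gives an expected 130, and the 109 p53 KO members held 99 against an expected 99.5. TRBV–TRBJ pairs numbered 98 in WT (expected 93.5) and 81 in p53 KO (80.3), and TRAJ–TRBJ pairs 113 (109) and 92 (83.9). TRAV–TRAJ pairs numbered 139 in WT (136) and 93 in p53 KO, fewer than the expected 101. In p53 KO, 3 TRAV–TRAJ pairs were in 3 or more members: TRAV11–TRAJ18 in 5 (expected 0.459), TRAV3-3–TRAJ39 in 4 (0.367) and TRAV9D-1–TRAJ31 in 3 (0.220). None was in 3 or more WT members. The 4 TRAV3-3–TRAJ39 members all carried 1 alpha coding sequence, and such repeats lower the number of different pairs. In WT, TRBV12-2+TRBV13-2 was joined to TRBJ2-5 in 6 members (2.52 expected), against 1 in p53 KO. TRBV1–TRBJ2-2 and TRBV13-1–TRBJ2-7 were in 4 WT members each. TRAV16N–TRBV1, in 3 WT members, was the one TRAV–TRBV pair found that often in either library. Of its 3 members 2 had the same CDR3 coding sequences in both chains, and these 2 also count among the TRBV1–TRBJ2-2 members. Of the J pairs, TRAJ37 met TRBJ2-5 in 5 WT members (1.89 expected) and TRAJ40 met TRBJ2-7 in 4 (0.986), while in p53 KO TRAJ23 met TRBJ2-7 in 4 (1.90).

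CDR3 lengths of both chains were close between the libraries. The alpha CDR3 averaged 13.5 residues (SD 1.26 over members) in WT and 13.8 (SD 1.25) in p53 KO, and the beta CDR3 13.9 (SD 1.56) and 14.1 (SD 1.40). An alpha CDR3 of 15 residues was carried by 18 WT members (12.3%, 7.47–18.8) and 28 p53 KO members (25.7%, 17.8–34.9), of which 0 and 8 used TRAJ18. A beta CDR3 of 14 or more residues was found in 65.1% of WT members (56.7–72.8) and 69.7% of p53 KO members (60.2–78.2). Across members, alpha and beta length gave Pearson's r of −0.02 (n = 146) and 0.02 (n = 109), and their sum ran from 23 to 33 residues in both libraries. By J gene, WT members with TRBJ2-2 averaged 15.1 beta residues (SD 1.43, n = 19) and those with TRBJ1-1 12.6 (SD 1.13, n = 9). In p53 KO these means were closer, 14.2 (SD 1.89, n = 4) and 13.5 (SD 1.33, n = 13). Beta chains with a D assigned averaged 14.2 residues in WT and 14.7 in p53 KO, against 13.9 and 14.0 without, and had more glycines in the middle of the loop, 2.08 against 1.21 in WT and 1.69 against 1.22 in p53 KO. The D is assigned from the bases of this same loop, so its length and glycines are not independent of the assignment. The shortest WT alpha chain, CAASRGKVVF, had 10 residues. The shortest beta chains also had 10, with 2 in each library, among them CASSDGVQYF in WT and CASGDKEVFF in p53 KO. In p53 KO 5 alpha chains tied as shortest with 11 residues, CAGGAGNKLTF among them. The longest had 16 (alpha) and 17 (beta) residues in WT and 17 and 18 in p53 KO.

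**Figure D5:**
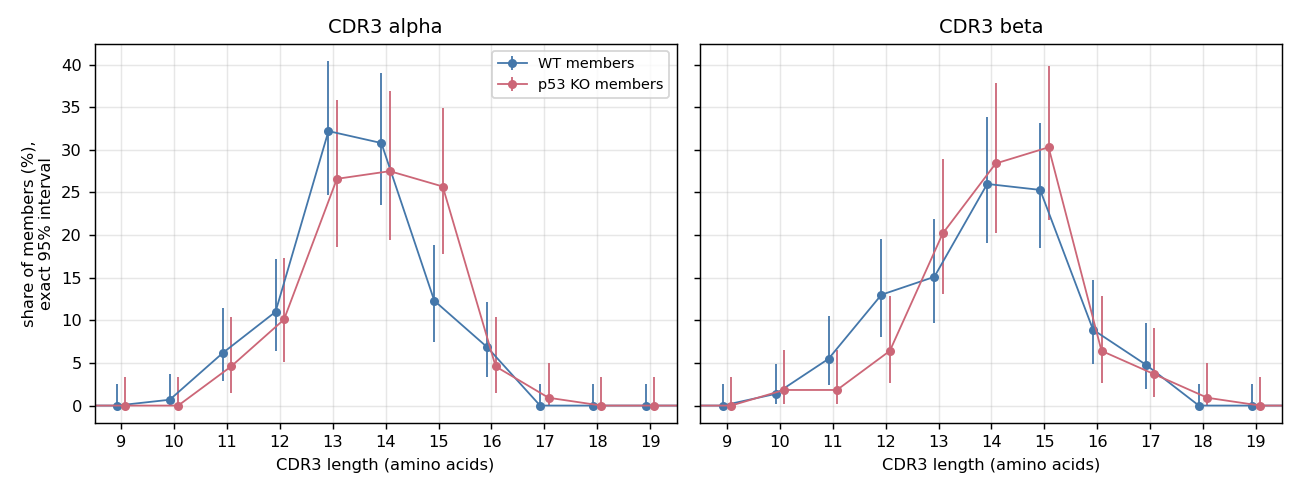
Share of members (%, vertical axis) by CDR3 length in amino acids (horizontal axis) for alpha (left) and beta (right) chains, with exact 95% intervals. The WT (blue) and p53 KO (red) curves run close together, and differ most at 15 residues in the alpha chain (12.3% and 25.7%).

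The middle of the CDR3, taken without its first 4 and last 4 residues, was described by residue class. Alpha middles were rich in the polar residues serine, threonine, asparagine and glutamine, 45.9% of residues in WT and 42.9% in p53 KO, against 28.3% and 28.2% in beta middles. Glycine was the most frequent beta residue class after these, at 24.0% and 21.7%. Acidic residues made up 14.1% of the beta middle in WT and 12.4% in p53 KO, but 4.85% and 7.31% of the alpha middle. The beta middle was net negative in 70 WT members (47.9%) and 45 p53 KO members (41.3%). With 3 residues left out at each end the order turned, to 58.2% and 67.0%. The alpha middle was net positive in 22 WT members (15.1%, 9.69–21.9) and 6 p53 KO members (5.50%, 2.05–11.6), intervals that overlap. Hydrophobic residues at both positions 6 and 7, counted from the conserved cysteine, were found in the beta chain of 2 WT and 1 p53 KO members. A cysteine in the middle, which thymic selection is known to disfavour, was found in 0 WT chains and in 1 alpha and 1 beta chain of p53 KO, the beta being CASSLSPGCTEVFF.

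The beta middle was also set beside that of the expanded clonotypes of the same library. Its mean Kyte-Doolittle hydropathy was above 0 in 15 of 146 WT members (10.3%, 5.87–16.4) and 12 of 35 expanded WT clonotypes (34.3%, 19.1–52.2), whose intervals lay apart. This was 1 of 26 residue measures over both chains (3.85%) with separate intervals between WT members and WT expanded clonotypes. The same 26 measures gave 0 between p53 KO members and expanded clonotypes, and 0 between the members of the 2 libraries. In p53 KO the values were 17 of 109 members (15.6%, 9.36–23.8) and 4 of 24 expanded clonotypes (16.7%, 4.74–37.4). With 3 residues left out at each end, the WT shares were 2.74% (0.751–6.87) and 11.4% (3.20–26.7), which overlap. Of 136 gene names used by WT members or expanded clonotypes, 0 had separate intervals between those groups, and of 130 in p53 KO also 0.

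Being alone by the clonotype identifier did not always mean that the chains were alone. The alpha or the beta CDR3 coding sequence was also found in another barcode of the library for 27 WT members (18.5%, 12.6–25.8) and 35 p53 KO members (32.1%, 23.5–41.7). Both chains together were in another barcode for 6 members of each library. In WT, the member with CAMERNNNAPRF matched an expanded clonotype of 3 cells and differed only in the beta V name, TRBV12-2+TRBV13-2 in place of TRBV13-2. A pair of WT members with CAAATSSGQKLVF and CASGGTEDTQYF were separated by the same pair of names, as were a pair of p53 KO members with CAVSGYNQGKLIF. A further pair of WT members, with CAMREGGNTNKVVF and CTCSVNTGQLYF, had the same V names and the same coding sequence in every annotated region. One p53 KO member shared CAVSMDYSNNRLTL and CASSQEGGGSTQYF with a clonotype of 6 cells, with both betas named TRBV2 but annotated with different CDR1 loops, HNAMY and LGHNA. In the other cases the match had an extra chain, 1 in WT and 3 in p53 KO.

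Recurrence of a CDR3 among the members took more than 1 form. An amino acid CDR3 was carried by 2 or more members for 10 alpha and 8 beta chains. Of the alpha chains 4 occurred in both libraries, and of the beta chains 0. The 4 were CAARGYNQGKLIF (2 WT and 3 p53 KO members), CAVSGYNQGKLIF (1 and 2), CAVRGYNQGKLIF (1 and 1) and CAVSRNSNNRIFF (1 and 1), and in each the WT and p53 KO cells had different coding sequences. All 4 have 13 residues, and the first 3 use TRAJ23. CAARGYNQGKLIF was made by 4 coding sequences that differ at 2 bases and was paired with 5 different beta chains. The TRAV3-3–TRAJ39 chain printed above had 1 coding sequence in 4 p53 KO members, which had 4 different beta chains, of TRBV13-1, TRBV29, TRBV12-2 and TRBV2. Its alpha UMIs were 6, 4, 6 and 4 and the beta UMIs 8, 5, 5 and 2. The TRBV13-1 and TRBV29 beta chains were each in 2 other barcodes, 1 of them a member with another alpha chain (TRAV14-2 and TRAV4-4-DV10), while the other 2 betas were in no other barcode. It was in 11 p53 KO barcodes in all, the other 7 having an alpha chain only. The TRAV6-6–TRAJ18 chain printed above was in 16 p53 KO barcodes: 2 members with different beta chains, 1 single cell with an extra chain, 2 cells of expanded clonotypes and 11 alpha-only barcodes. Leaving out members with either CDR3 in another barcode left 5 of 74 p53 KO members with TRAJ18 (6.76%, 2.23–15.1) and 0 of 119 in WT (upper bound 3.05%), intervals that overlap. Among the 8 recurring beta chains, the TRBV12-2+TRBV13-2–TRBJ2-5 chain printed above was the one made by 2 coding sequences, each in 1 WT member.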

How the data were processed

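The 2 TCR libraries (10x 5′, 1 WT and 1 p53 KO) were grouped by the genotype in their titles. Per the file headers, the authors deposited filtered contigs with V, D, J and C genes, CDR sequences, clonotype identifiers, and reads and UMIs as whole-number counts that were not normalized. The contigs rested on 14957044 reads and 4280 UMIs in WT and on 19853340 and 4138 in p53 KO. The submitters' processing notes name Cell Ranger 6.1.1 and mm10, and the version of the TCR reference was not given in the sources used here. Gene shares, pairs, lengths and residues of members were counted in Python 3.11.15 with pandas 2.3.3 and scipy 1.17.1, and the counting was tested on simulated data. Expected pairs are products of the 2 gene shares. Gene coordinates were matched by symbol to RefSeq, where 152 of 153 names matched. No doublet caller was run, and barcodes with an extra chain were left out of the members. The text names the 5 leading genes of each kind and library (with the genes tied for the last place, named after their values were seen), genes in 15 or more members past a ratio of 1.5, leading pairs in 3 or more members, recurring CDR3s, extreme lengths and invariant chains. The members and lists were chosen with earlier results of these data known. The TRAV3-3–TRAJ39 and TRAV6-6–TRAJ18 chains were followed into other barcodes, and 15-residue alpha chains counted, after their values were seen. Alternatives changed the UMI minimum, the member rule, gene names, thresholds and the residues left out.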

Additional observations from a re-analysis of the deposited data

Results flagged for a closer look

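Barcodes with a single chain, which the member rule does not use, carried CDR3 coding sequences of members. In WT, 11 of 82 alpha-only barcodes (13.4%, 6.89–22.7) and 10 of 49 beta-only barcodes (20.4%, 10.2–34.3) did so. In p53 KO, 23 of 41 alpha-only barcodes (56.1%, 39.7–71.5) and 26 of 92 beta-only barcodes (28.3%, 19.4–38.6) did so. They are listed here because these barcodes enter no comparison of the report. The member rule lets a single-chain barcode share a member's clonotype identifier, as happened for 13 WT and 9 p53 KO members, so some sharing is built in. Of the p53 KO alpha-only barcodes, 11 carried the TRAV6-6–TRAJ18 chain and 7 the TRAV3-3–TRAJ39 chain described above.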

How the results depend on the processing

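The share of paired cells that were members moved with the rule: to 28.9% in WT and 20.8% in p53 KO with 3 or more UMIs per contig, 45.8% and 34.0% with a beta CDR3 in no other barcode, 62.8% and 55.2% with extra chains allowed, and 43.0% and 28.6% with neither CDR3 in another barcode, an alternative chosen after seeing the data. It was higher in WT under each of these. Genes past the ratio numbered 2 of 7 tested with 3 or more UMIs, 4 of 18 with unique beta CDR3s, 3 of 16 with neither CDR3 elsewhere, 15 of 35 (7 higher, 8 lower) with 10 or more members per gene, and 2 of 21 at a ratio of 2, against 7 of 21. In 15 cases a called gene fell short of the ratio in use. For example, TRBV1 did with unique beta CDR3s (0.787), and TRBJ1-1 with 3 or more UMIs (1.19) and with extra chains (1.30). Over the alternatives run, the ratio lay between 0.282 and 0.495 for TRBJ2-2 and between 0.370 and 0.608 for TRAJ37. With 3 residues left out at each end, net negative shares were 8.22% and 11.9% for alpha and 58.2% and 67.0% for beta, and shares of hydropathy above 0 were 1.37% for WT alpha and 2.74% and 3.67% for beta. The cause was not tested. TRAJ18 in p53 KO went to 1.85% with 3 or more UMIs. Of the other comparisons, 127 under an alternative stayed within the counting interval of the first value or within 1.5 times the first count. The number of cells and 1 library per genotype limit precision. No paired analysis was possible because each genotype has 1 library. The planned split of the junction into germline and added bases was not run, as no germline segment sequences were used here.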
